A study of Arabidopsis thaliana with 4 samples.

Results

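The genes of carbon fixation and of its side path, the enzymes of the Calvin cycle and of photorespiration, were compared between floral buds and seedlings of Arabidopsis thaliana. They were taken as 41 nuclear loci listed by enzyme name and locus identifier, 24 of the Calvin cycle and 17 of photorespiration, by a rule that uses no measured value. Of these, 40 were among the 24750 genes of the count table. The phosphoglycolate phosphatase gene PGLP1B (AT5G36790) was not analysed here, nor was its near-identical copy PGLP1A (98.5% identity over the transcript). RBCS1A (AT1G67090), RBCS3B (AT5G38410) and RPI3 (AT3G04790) were listed at 0 in all 4 libraries, which left 37 members with counts, and all 37 passed the limit of 5 counts summed over the libraries and were tested.

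Native poly(A) RNA was read by Oxford Nanopore direct RNA sequencing (ONT DRS), in which each read comes from 1 RNA molecule without PCR. The 2 floral bud libraries came from untreated Col-0 plants that were moved to soil, grown for another 3 weeks and harvested as flowering began (growth stages 6.0 and 6.1). The 2 seedling libraries came from whole untreated Col-0 plants aged 14 days on ½ MS plates with 1% sucrose. All plants had 16 h of light and 8 h of dark, and the labels call the samples of a stage biological replicates. Organ, age and growth medium differ together between the stages, so their parts in any difference below cannot be told apart. In bulk RNA, fewer green cells and less of an mRNA in each green cell cannot be told apart either.

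The libraries held 796885 and 669401 estimated counts in floral buds, against 579416 and 620120 in seedlings, so that 3 counts, the smallest number taken as detectable, stood for 3.76 to 5.18 CPM, counts set relative to the total of the library. Marker genes, chosen with earlier results of these data known, followed the labels. All 5 floral organ markers (AP1, AP3, PI, AG, SEP3) and all 7 anther markers were called higher in floral buds, with summed normalized CPM of 1175 and 1083 in floral buds against 10.6 and 5.08 in seedlings for the floral organ list, and 5054 and 4930 in floral buds against 5.30 and 1.69 in seedlings for the anther list. AP1, AP3, AG, A9, ATA7, EXL4 and LAP5 were at 0 in both seedling libraries. The 6 root markers summed to 12.5 and 8.47 CPM in floral buds against 1712 and 1564 in seedlings. Of these sums PYK10 gave 6.23 and 0 CPM in floral buds against 1375 and 1298 in seedlings. BGLU21, BGLU22 and CASP1 were at 0 in both floral bud libraries. NRT2.1 was too, but it had only 0 and 2 counts in seedlings and was not tested. The 5 green tissue markers (CAB1, LHCB3, PSBO1, PSAD1, PSAL) were all called lower and summed to 7169 and 6655 CPM in floral buds against 29645 and 31266 CPM in seedlings. The root and green tissue lists were lower in floral buds, as most members were, and the floral organ and anther lists were higher. The part of these lists in the results below was not tested.

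In the Calvin cycle, Rubisco joins CO2 to ribulose bisphosphate, the product is reduced to triose phosphate with ATP and NADPH, and the acceptor is rebuilt from the rest of the triose phosphate. When Rubisco takes O2 in place of CO2, it makes phosphoglycolate, which photorespiration recovers through the chloroplast, the peroxisome and the mitochondrion, with loss of CO2 and ammonia. Both paths run mainly in green tissue.

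The mRNAs of both paths were lower in floral buds. In CPM after upper-quartile scaling (normalized CPM), the members summed to 12108 and 11554 in floral buds against 22338 and 22954 in seedlings, 1.91-fold lower. As a share of all counts they made up 1.22% and 1.22% in floral buds against 2.18% and 2.18% in seedlings. RBCS1A, RBCS3B and RPI3, listed at 0, added nothing to these sums and shares. The Calvin cycle members alone took 0.880% (95% Wilson interval 0.860% to 0.901%) and 0.872% (0.850% to 0.895%) in floral buds against 1.55% (1.52% to 1.58%) and 1.59% (1.56% to 1.62%) in seedlings. The summed level was 1.92-fold lower for the Calvin cycle and 1.90-fold lower for photorespiration. For each of these sums the stages did not overlap, and the exact two-sided permutation test gave p = 0.33, the smallest that 2 libraries against 2 allow.

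Gene by gene, 14 of the 37 tested members were differentially expressed genes (DEGs) lower in floral buds and 0 were DEGs higher in floral buds. A DEG had an edgeR quasi-likelihood false discovery rate (FDR) below 0.05 and a fold change above 2. Over all 18647 tested genes, 9.52% were called lower and 10.3% higher. The DEGs were 7 Calvin cycle genes (RBCS1B, RCA, PGK1, GAPB, CP12-1, CP12-2 and PRK) and 7 photorespiration genes (GOX1, GGT1, AGT1, SHM1, HPR1, CAT2 and GLU1). A further 15 members had an FDR below 0.05 in the same direction with a fold change of at most 2, and 8 had an FDR of 0.05 or more. The median log2 fold change, floral buds over seedlings, was -0.90 over the members and 0.06 over all tested genes.

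Many members had high counts, and genes with high counts pass the test more often. With the fold limit set aside, 29 of 37 members were lower at an FDR below 0.05, against 11.5% of all tested genes. Of the 28 members with a mean of at least 100 counts, 27 were lower at that FDR, against 31.1% of the 1203 genes with such a mean, while 33.3% of those genes were higher. With the fold limit, 12 of the 28 were called lower, against 16.7% of the 1203. Both floral bud libraries lay under both seedling libraries for 30 of the 37 members, against 27% of all tested genes, and over both for GGT2 and GLDH2, against 30.5%. Of the 14 calls, GGT1, RCA, CAT2 and GLU1 were made under every alternative setting that was run.

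**Figure D1:**
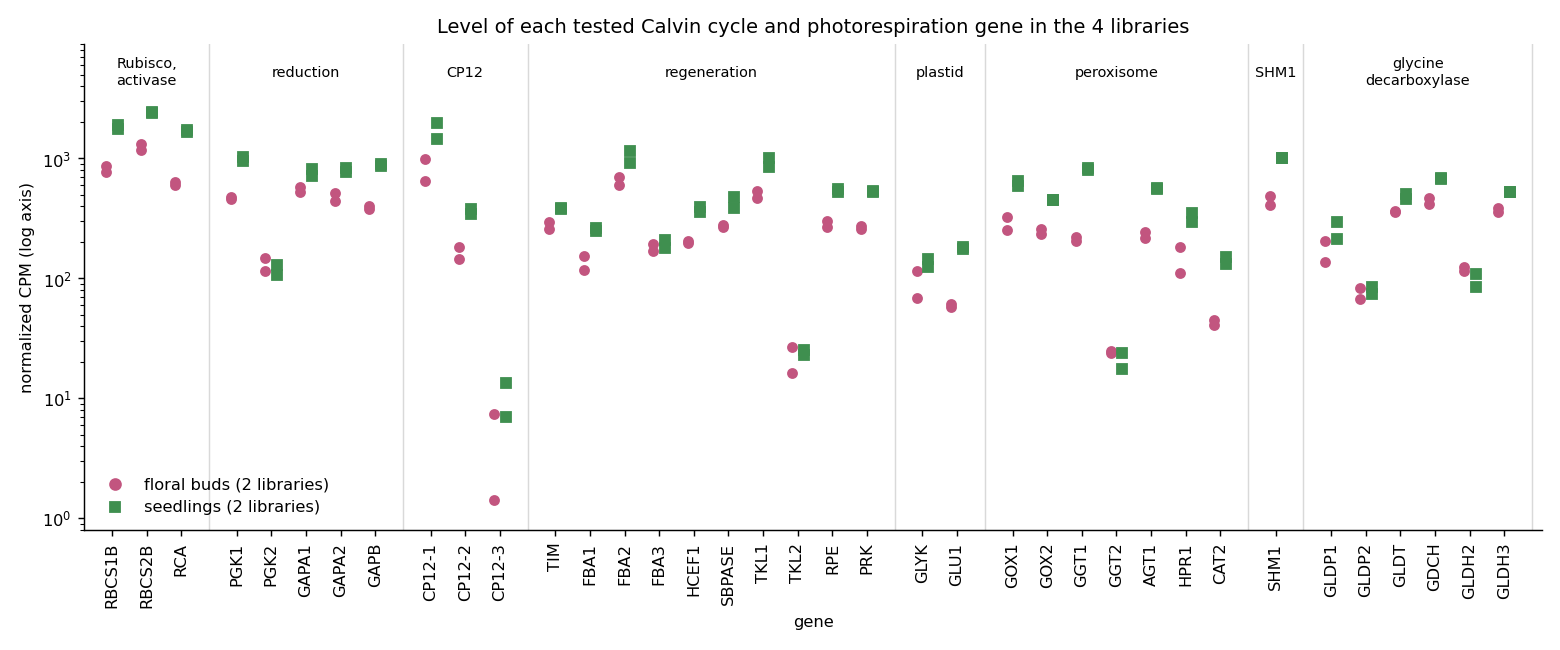
Normalized CPM on a log axis for the 37 tested genes, in order of their step or compartment. Circles are the 2 floral bud libraries and squares the 2 seedling libraries; the circles lie under the squares for 30 genes, with PGK2, GGT2 and GLDH2 among the exceptions.

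**Figure D2:**
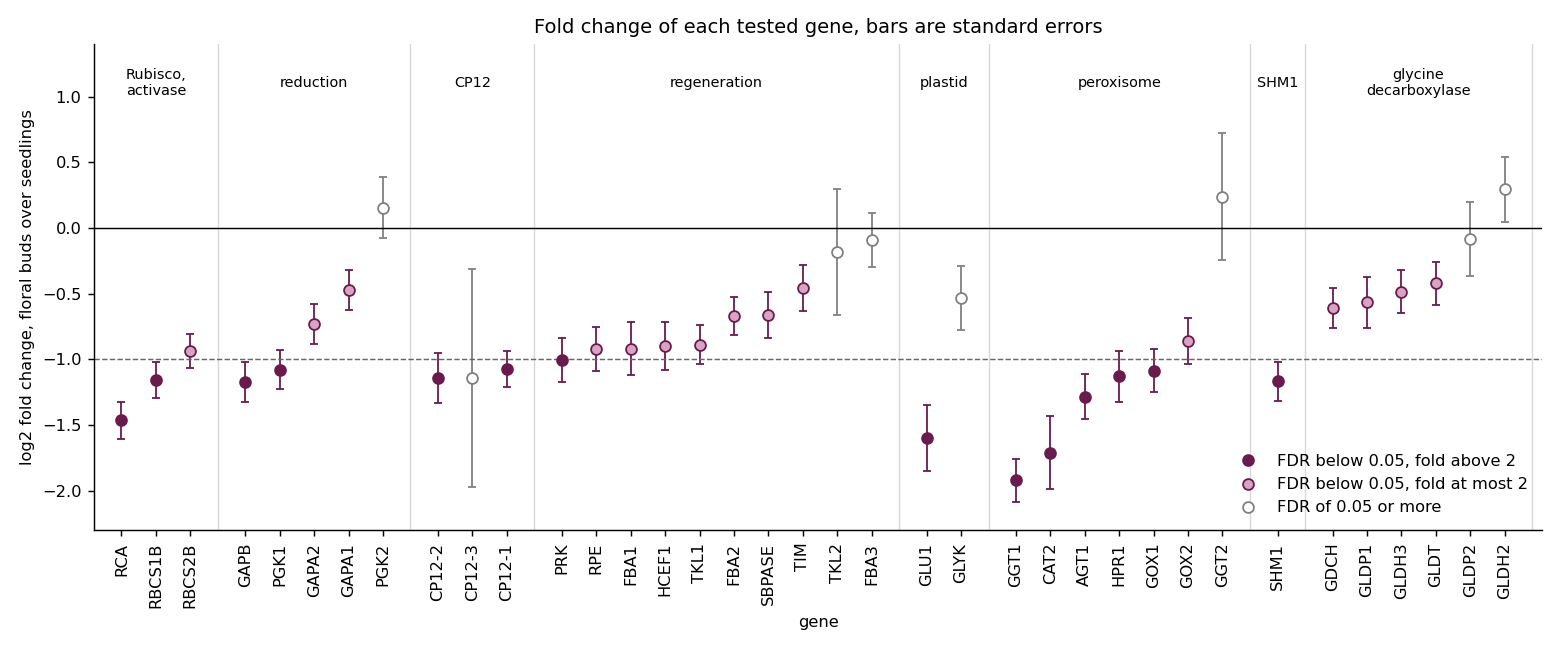
The log2 fold change of floral buds over seedlings for the same 37 genes, sorted within each step, with bars of 1 standard error. Dark points are the 14 DEGs, light points the 15 genes with an FDR below 0.05 and a fold change of at most 2, and open points the 8 genes with an FDR of 0.05 or more; the dashed line marks a fold change of 2.

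The 3 tested genes of Rubisco and its activase were all lower at an FDR below 0.05, and 2 of them were DEGs. These shares were 11.5% and 9.52% over all tested genes. RCA (AT2G39730), whose product frees Rubisco of bound sugar phosphates, had 478 and 449 counts in floral buds against 983 and 979 in seedlings, or 615 ± 27.2 normalized CPM in floral buds against 1697 ± 53.9 in seedlings (SD, n = 2 each). It fell by 1.47 ± 0.14 on the log2 scale (SE), with an edgeR FDR of 4.38e-24, the largest decrease among the Calvin cycle members. RBCS1B (AT5G38430), a gene of the Rubisco small subunit, had 867 and 775 CPM in floral buds against 1767 and 1898 in seedlings and fell by 1.16 ± 0.13 (edgeR FDR = 3.75e-16). Its neighbour RBCS2B (AT5G38420) had 1319 and 1186 CPM in floral buds against 2378 and 2430 in seedlings. Its log2 fold change of -0.94 ± 0.13 had an edgeR FDR of 6.23e-12 and stayed under the fold limit. With limma-voom and quantile normalization the decreases were smaller. The log2 fold change was then -0.22 for RBCS2B (limma-voom FDR = 0.0437) and -0.78 for RBCS1B (limma-voom FDR = 0.006). Within each library RCA had 0.272 and 0.323 counts per RBCS count in floral buds against 0.419 and 0.383 in seedlings, without overlap (exact permutation p = 0.33). The RBCS counts in this ratio are those of RBCS1B and RBCS2B alone.

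All the RBCS counts fell on these 2 genes. RBCS1A on chromosome 1 and RBCS3B, which lies beside RBCS2B and RBCS1B on chromosome 5, were listed at 0 in every library. A 0 in a table of estimated counts can be a failed estimate. None of the 12 housekeeping genes looked up was at 0, but 11.7% of the protein-coding genes of the table were at 0 in every library. The coding sequences of RBCS1B and RBCS2B were identical at 97.3% of aligned positions and those of RBCS1B and RBCS3B at 96.7%, while RBCS1A shared 89.9% with RBCS1B. What decided the split of counts between these genes was not tested. The stretch of 90 bases below holds 23 variable positions, the most of any gap-free window within 1 exon. It is shown as an example of where these genes differ. It lies in the first coding exon, from coding base 15 to 104 of each gene, is read from the TAIR10.1 genome on the minus strand, and has in capitals the bases that differ from RBCS1B (none in its own line). RBCS1A is at chr1:25049146-25049235, RBCS1B at chr5:15385052-15385141, RBCS2B at chr5:15381875-15381964 and RBCS3B at chr5:15378203-15378292.
RBCS1A: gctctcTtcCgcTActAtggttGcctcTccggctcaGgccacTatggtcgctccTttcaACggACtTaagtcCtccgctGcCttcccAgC
RBCS1B: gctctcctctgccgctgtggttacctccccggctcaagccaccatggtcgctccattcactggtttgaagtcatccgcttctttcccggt
RBCS2B: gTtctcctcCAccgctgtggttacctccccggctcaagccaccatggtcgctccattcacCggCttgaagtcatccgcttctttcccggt
RBCS3B: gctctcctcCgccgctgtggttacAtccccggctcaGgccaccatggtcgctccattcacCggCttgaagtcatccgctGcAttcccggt
In this window RBCS2B differed from RBCS1B at 5 positions, RBCS3B at 7 and RBCS1A at 20. With the 4 genes summed into 1 feature, the RBCS counts were 1755 and 1389 in floral buds against 2348 and 2554 in seedlings, and the sum fell by 1.03 ± 0.12 on the log2 scale (edgeR FDR = 2.9e-16). No alternative setting was run for the sum.

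Since so many members were lower together, the 250 bases before the annotated transcript start nearest to the start codon were searched for 2 motifs known from promoters of photosynthesis genes, the G-box (CACGTG, its own reverse complement) and the I-box (GATAAG, on both strands). The G-box was in 9 of 41 member windows (22%) and in 6.73% of 27443 windows of nuclear protein-coding genes. The I-box was in 9 of 41 (22%) against 12.6%. Both were in the windows of RBCS1A, RBCS2B, RBCS3B and HCEF1, or 9.76% of the members, against 0.984% of all windows. Among tested protein-coding genes the shares were 7.84% for the G-box, 12.7% for the I-box and 1.19% for both. Many member windows touch an annotated exon, among them those of RBCS1A, RBCS3B and HCEF1. The RBCS genes of chromosome 5 share sequence and are not separate cases. Among the 14 DEGs, 3 windows held a G-box and 3 an I-box, against 4 and 4 of the 23 tested members that were not called. Both motifs together were in 0 of the 14 DEG windows and in 2 of those 23. A match is a description of letters and not of a bound site. The windows of RBCS2B (chr5:15382072-15382321, minus strand) and of the DEG PRK (chr1:11531949-11532198, plus strand) are shown as the pair with a G-box that touch no annotated exon, 5′ to 3′ along the gene from TAIR10.1, with both motifs in capitals.
RBCS2B: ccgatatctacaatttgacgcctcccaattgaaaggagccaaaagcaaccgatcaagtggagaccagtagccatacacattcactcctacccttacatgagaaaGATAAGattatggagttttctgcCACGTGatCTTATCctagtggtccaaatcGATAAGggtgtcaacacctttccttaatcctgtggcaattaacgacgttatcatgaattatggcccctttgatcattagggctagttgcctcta
PRK: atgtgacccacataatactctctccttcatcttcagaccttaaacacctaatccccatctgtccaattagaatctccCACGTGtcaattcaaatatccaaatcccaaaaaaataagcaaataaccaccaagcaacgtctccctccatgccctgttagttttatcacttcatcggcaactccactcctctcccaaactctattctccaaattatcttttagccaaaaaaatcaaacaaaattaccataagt
RBCS2B held 1 G-box between 3 I-boxes, the middle one on the other strand, and PRK held 1 G-box and no I-box.

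In the reduction phase, 2 of the 5 genes were DEGs and 4 had an FDR below 0.05. Over all tested genes, 9.52% were called lower and 11.5% were lower at that FDR. GAPB (AT1G42970), a subunit of the NADPH-dependent glyceraldehyde phosphate dehydrogenase of the chloroplast, had 401 and 381 normalized CPM in floral buds against 860 and 905 in seedlings and fell by 1.17 ± 0.15 on the log2 scale (edgeR FDR = 5.87e-13). The other subunit is encoded by GAPA1 (AT3G26650) and GAPA2 (AT1G12900), whose log2 fold changes of -0.47 ± 0.15 and -0.73 ± 0.15 stayed under the fold limit. GAPA1 had 583 and 527 CPM in floral buds against 821 and 720 in seedlings. PGK1 (AT3G12780), a phosphoglycerate kinase of the chloroplast, had 477 and 456 CPM in floral buds against 951 and 1023 in seedlings and fell by 1.08 ± 0.15 (edgeR FDR = 1.08e-11). Its paralog PGK2 (AT1G56190) had 116 and 148 CPM in floral buds against 108 and 129 in seedlings, so the stages overlapped, and its log2 fold change of 0.15 ± 0.23 did not pass the test (edgeR FDR = 0.714).

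CP12 proteins hold glyceraldehyde phosphate dehydrogenase and phosphoribulokinase in an inactive complex in the dark. CP12-1 (AT2G47400) had 989 and 651 normalized CPM in floral buds against 1467 and 1993 in seedlings. It fell by 1.07 ± 0.14 on the log2 scale (edgeR FDR = 7.05e-14), with replicates far apart within both stages. The log2 fold change was -0.83 without floral buds replicate 2 and -0.85 without seedlings replicate 2, under the fold limit in both cases, and the FDR of limma-voom was 0.102. CP12-2 (AT3G62410) had 182 and 144 CPM in floral buds against 342 and 380 in seedlings and fell by 1.14 ± 0.19 (edgeR FDR = 2.2e-08). CP12-3 (AT1G76560) had only 6 and 1 counts in floral buds against 4 and 8 in seedlings. At -1.14 ± 0.83 on the log2 scale, a difference was not detectable at this depth (edgeR FDR = 0.354).

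The regeneration of ribulose bisphosphate held 11 members, of which 10 were tested, and only PRK passed both limits, a share near the 9.52% called lower over all tested genes. With the fold limit set aside, 8 of the 10, PRK among them, were lower at an FDR below 0.05, against 11.5% of all tested genes. PRK (AT1G32060), the phosphoribulokinase that makes the CO2 acceptor, had 259 and 271 normalized CPM in floral buds against 540 and 525 in seedlings. The replicates were close together, but the decrease of 1.01 ± 0.17 on the log2 scale (edgeR FDR = 4.12e-08) lay at the fold limit, and the call was lost with TMM factors (-0.99), with library size alone (-0.91), with at least 10 counts in each library (-0.95), with glmTreat, without floral buds replicate 1 (-0.96) and without seedlings replicate 1 (-0.99). A further 7 genes had an FDR below 0.05 and log2 fold changes from -0.92 to -0.45. They were RPE (AT5G61410, ribulose phosphate epimerase), FBA1 (AT2G21330) and FBA2 (AT4G38970), which encode aldolases of the chloroplast, HCEF1 (AT3G54050, fructose bisphosphatase), TKL1 (AT3G60750, transketolase), SBPASE (AT3G55800, sedoheptulose bisphosphatase) and TIM (AT2G21170, triose phosphate isomerase). HCEF1 had 197 and 203 CPM in floral buds against 392 and 356 in seedlings, and SBPASE had 268 and 280 CPM in floral buds against 385 and 481 in seedlings. TIM was the least changed of the 7, with 260 and 297 CPM in floral buds against 378 and 385 in seedlings and a log2 fold change of -0.45 ± 0.17 (edgeR FDR = 0.0402, DESeq2 FDR = 0.168). FBA3 (AT2G01140) and TKL2 (AT2G45290) had log2 fold changes of -0.09 ± 0.20 and -0.18 ± 0.48, and their stages overlapped. FBA1 and TKL1 passed the fold limit without floral buds replicate 2, TKL1 also without seedlings replicate 2, and RPE and RBCS2B without floral buds replicate 1.

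The 3 largest decreases among the called members were those of the photorespiration genes GGT1, CAT2 and GLU1. GGT1 (AT1G23310), the glutamate:glyoxylate aminotransferase that makes glycine, had 206 and 223 normalized CPM in floral buds against 794 and 829 in seedlings. It fell by 1.92 ± 0.17 on the log2 scale, 3.79-fold, with an edgeR FDR of 2.48e-29. AGT1 (AT2G13360), the serine:glyoxylate aminotransferase that also makes glycine, had 216 and 244 CPM in floral buds against 554 and 564 in seedlings and fell by 1.28 ± 0.17 (edgeR FDR = 1.5e-12). For both genes the stages were far apart and the replicates close. GGT2 (AT1G70580), the paralog of GGT1, had 24.9 and 24.0 CPM in floral buds against 17.7 and 23.7 in seedlings, and at 0.24 ± 0.48 on the log2 scale it did not pass the test (edgeR FDR = 0.789).

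Glyoxylate and hydrogen peroxide are made in the peroxisome by glycolate oxidase. Its genes GOX1 (AT3G14420) and GOX2 (AT3G14415) are neighbours on chromosome 3. GOX1 had 325 and 253 normalized CPM in floral buds against 646 and 586 in seedlings and fell by 1.09 ± 0.16 on the log2 scale (edgeR FDR = 7.11e-10). GOX2 had 234 and 260 CPM in floral buds against 450 and 447 in seedlings. At -0.86 ± 0.17 (edgeR FDR = 8.29e-06) it stayed under the fold limit. CAT2 (AT4G35090), a catalase that removes hydrogen peroxide, had 36 and 29 counts in floral buds against 85 and 78 in seedlings, or 42.9 ± 2.76 CPM in floral buds against 141 ± 12.6 in seedlings (SD, n = 2 each), and fell by 1.71 ± 0.28 (edgeR FDR = 1.34e-08). HPR1 (AT1G68010), the hydroxypyruvate reductase, had 112 and 184 CPM in floral buds against 350 and 295 in seedlings and fell by 1.13 ± 0.19 (edgeR FDR = 9.24e-08). The call of GOX1 was lost without floral buds replicate 2 (-0.95) and that of HPR1 without floral buds replicate 1 (-0.80).

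In the plastid, GLU1 (AT5G04140), the ferredoxin-dependent glutamate synthase that takes up the released ammonia, had 57.3 and 60.7 normalized CPM in floral buds against 184 and 175 in seedlings. It fell by 1.60 ± 0.25 on the log2 scale (edgeR FDR = 2.88e-09). GLYK (AT1G80380), the glycerate kinase that closes the path, had 115 and 69.2 CPM in floral buds against 124 and 144 in seedlings. Its stages did not overlap, but its log2 fold change of -0.53 ± 0.24 did not pass the test (edgeR FDR = 0.0997).

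Glycine decarboxylase and serine hydroxymethyltransferase turn glycine into serine in the mitochondrion. SHM1 (AT4G37930), a gene of the second enzyme, had 491 and 407 normalized CPM in floral buds against 1015 and 1003 in seedlings and fell by 1.17 ± 0.15 on the log2 scale (edgeR FDR = 1.75e-13). Of the 6 members that encode glycine decarboxylase subunits, 0 were called, beside 9.52% called lower over all tested genes. Of these, GDCH (AT2G35370) and GLDH3 (AT1G32470), which encode H proteins that carry the reaction intermediate, GLDP1 (AT4G33010), a P protein, and GLDT (AT1G11860), the T protein, had an FDR below 0.05 with log2 fold changes from -0.61 to -0.42. GDCH had 472 and 419 CPM in floral buds against 687 and 676 in seedlings, and GLDT had 358 and 362 CPM in floral buds against 508 and 456 in seedlings. The log2 fold change of GLDP1 was -0.57 and came to -0.29 without floral buds replicate 1 (edgeR FDR = 0.418) and to -0.32 without seedlings replicate 1 (edgeR FDR = 0.419). With DESeq2 the FDR was 0.243 for GLDP1, 0.143 for GLDT and 0.0559 for GLDH3, and with any 1 library left out that of GLDT was 0.0588 to 0.25. GLDP2 (AT2G26080) and GLDH2 (AT2G35120), the other P and H genes, had log2 fold changes of -0.08 ± 0.28 and 0.30 ± 0.25 and did not pass the test.

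The compartments were compared by ratios within a library, which need no scaling between libraries. The 6 glycine decarboxylase genes summed to 1.33 and 1.25 counts per count of the 7 peroxisomal genes in floral buds against 0.744 and 0.705 in seedlings, a 1.78-fold higher ratio in floral buds. Set against SHM1, the same sum was 1.66-fold higher in floral buds. Neither ratio overlapped between the stages, and the exact permutation p was 0.33 for each, the smallest possible. The ratio of photorespiration to Calvin cycle members was 0.386 and 0.401 in floral buds against 0.409 and 0.372 in seedlings, and the stages overlapped. The ratio of each path to the green tissue markers was higher in floral buds. The Calvin cycle members had 1.22 and 1.24 counts per count of the 5 markers in floral buds against 0.535 and 0.535 in seedlings, and the photorespiration members had 0.470 and 0.497 in floral buds against 0.219 and 0.199 in seedlings (exact permutation p = 0.33 for each ratio).

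**Figure D3:**
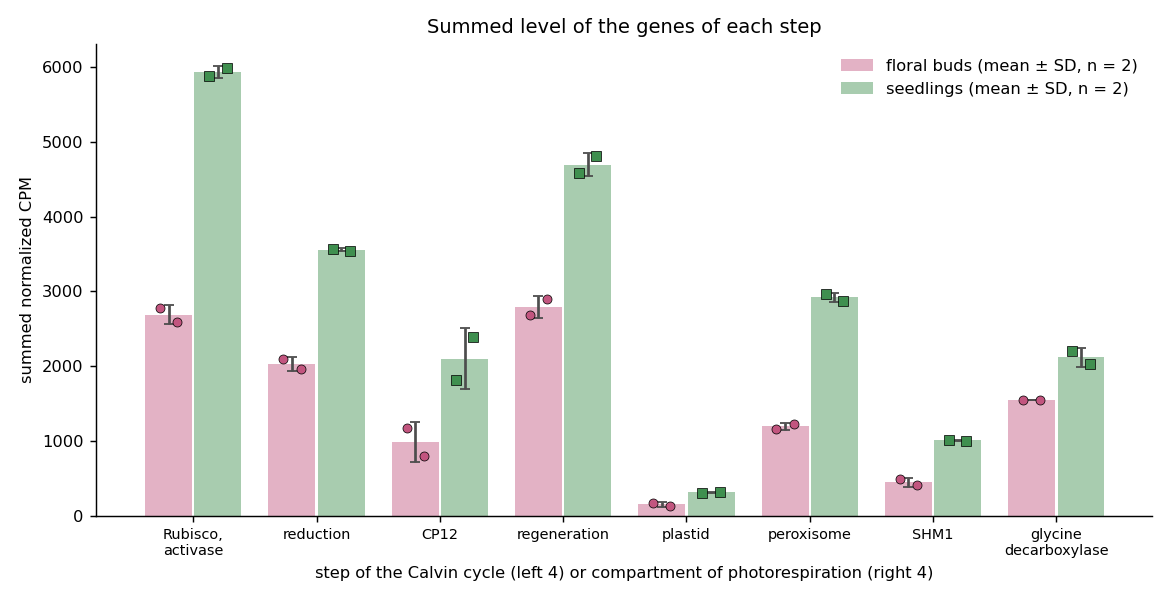
Summed normalized CPM of the genes of each Calvin cycle step (left 4 pairs) and photorespiration compartment (right 4 pairs), as bars of the mean with SD over 2 libraries and a point for each library. The sum was 2.44-fold lower in floral buds for the peroxisome, 2.21-fold lower for Rubisco and activase and 1.37-fold lower for glycine decarboxylase.

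Many of these enzymes are made from more than 1 gene, and the share of each paralog in the counts of its family was compared within libraries. The 16 pairs of tested paralogs in 10 families were compared by the difference of their log2 fold changes, with 95% intervals adjusted over the 16 pairs, a comparison chosen after seeing the data, and 3 intervals excluded 0. PGK1 took 80.5% and 75.5% of the PGK counts in floral buds against 89.8% and 88.8% in seedlings, and the log2 fold changes of PGK1 and PGK2 differed by -1.23 (adjusted interval -2.06 to -0.41). GGT1 took 89.2% and 90.3% of the GGT counts in floral buds against 97.8% and 97.2% in seedlings, and the difference of GGT1 from GGT2 in log2 fold change was -2.16 (-3.66 to -0.66). In both families the paralog with the larger share was the one that fell.

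The third such pair was GDCH and GLDH2, whose log2 fold changes differed by -0.91 (-1.77 to -0.04). GLDH2 took 12.5% and 12.8% of the GLDH counts in floral buds against 8.31% and 6.59% in seedlings. This interval held 0 with DESeq2, with the replicate block and without floral buds replicate 1, floral buds replicate 2 or seedlings replicate 2. The interval for GGT1 and GGT2 held 0 with DESeq2. That for PGK1 and PGK2 excluded 0 under every alternative that gave an SE. Limma-voom, the exact test and glmTreat gave no SE here, so no interval was computed with them. For the other 13 pairs the adjusted interval held 0. RBCS1B and RBCS2B differed by -0.22 (-0.77 to 0.33), GOX1 and GOX2 by -0.23 (-0.93 to 0.48), and GAPA1 and GAPA2 by 0.26 (-0.37 to 0.89). The PGK and GGT transcripts align at 86.4% and 86.9% identity and the GOX transcripts at 86.7%.

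**Figure D4:**
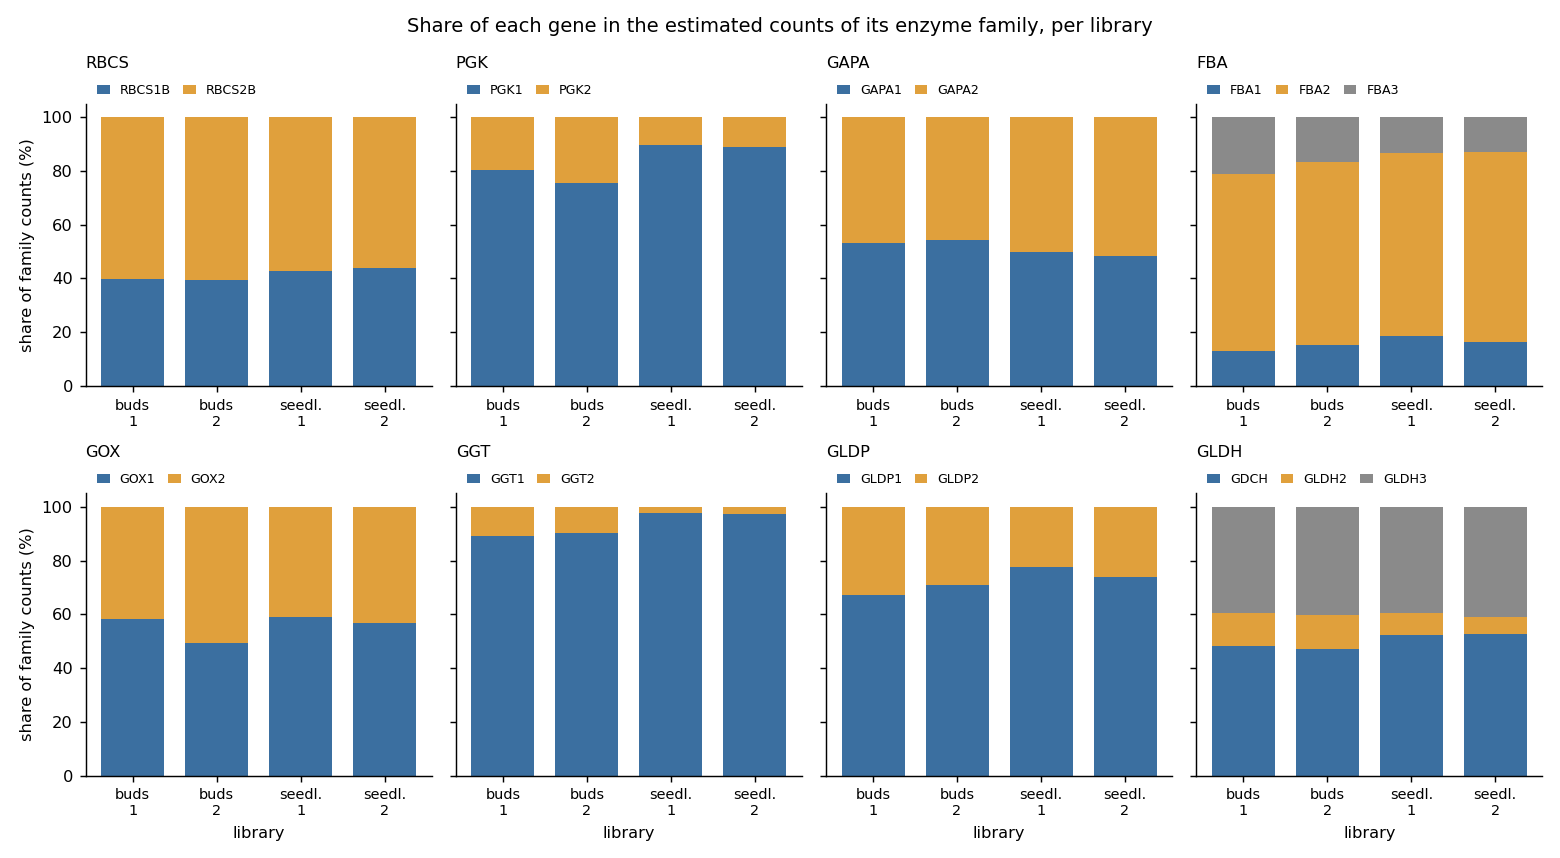
Percent of the estimated counts of 8 enzyme families taken by each of their genes, with the 2 floral bud libraries left of the 2 seedling libraries in each panel. RBCS2B, PGK2, GAPA1, FBA3, GGT2, GLDP2 and GLDH2 had larger shares in both floral bud libraries than in either seedling library. The GOX shares overlapped.

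The other genes of these paths were read from 3 lists, which were chosen with earlier results of these data known. Of 20 photorespiration companions tested, 5 were called lower and 0 higher, beside 9.52% and 10.3% over all tested genes, and the median log2 fold change was -0.37. The called genes were GLN2, GLT1, CAT3, the peroxisomal malate dehydrogenase gene PMDH2 (log2 fold change -1.33 ± 0.18) and GOX3, which had 1 and 4 counts in floral buds against 11 and 19 in seedlings. The call of GOX3 was lost with DESeq2 (FDR = 0.0528) and with limma-voom (FDR = 0.0611), and its log2 fold change ran from -4.20 to -2.15 with 1 library left out. GLN2, the chloroplast glutamine synthetase that works with GLU1, had 470 and 501 normalized CPM in floral buds against 1112 and 1196 in seedlings and fell by 1.25 ± 0.15 on the log2 scale (edgeR FDR = 5.76e-16). GLT1, the NADH-dependent glutamate synthase, had 62.3 and 59.3 CPM in floral buds against 258 and 192 in seedlings and fell by 1.88 ± 0.24 (edgeR FDR = 8.27e-14). GLU2, the other ferredoxin-dependent glutamate synthase gene, did not pass the test, with a log2 fold change of 0.07 ± 0.42.

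CAT3, another catalase gene, had 719 and 844 normalized CPM in floral buds against 4863 and 4597 in seedlings and fell by 2.60 ± 0.13 on the log2 scale (edgeR FDR = 1.97e-87). CAT1 went the other way, with 92.2 and 103 CPM in floral buds against 61.8 and 52.5 in seedlings, at 0.77 ± 0.29 on the log2 scale and under the fold limit (edgeR FDR = 0.0328). SHM2, mLPD1, mLPD2, the peroxisomal PMDH1 and the mitochondrial carrier BOU did not pass the test, with log2 fold changes between -0.43 and 0.29.

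Of 20 genes of Rubisco assembly and Calvin cycle regulation, 4 were called lower (9.52% over all tested genes), 0 were called higher and the median log2 fold change was -0.64. RBCX1, a chaperone of Rubisco assembly, had 28.7 and 36.7 normalized CPM in floral buds against 154 and 166 in seedlings and fell by 2.29 ± 0.28 on the log2 scale (edgeR FDR = 2.77e-14), while RBCX2 had a log2 fold change of -0.10 ± 0.33 and did not pass the test. The others called were TRXF1 and TRXM4, thioredoxins that activate Calvin cycle enzymes in the light, and FTRA1, a subunit of the reductase that feeds them. The call of FTRA1 was lost with DESeq2 (FDR = 0.0904). With 1 library left out, the FDR of FTRA1 reached 0.0532 and the log2 fold changes of TRXF1 and TRXM4 came to -0.91 each, under the fold limit. The chaperonin genes CPN60A1, CPN60B1 and CPN20 did not pass the test (log2 fold changes of 0.18, -0.13 and 0.19). Of 15 tested counterparts of the cytosol and other compartments, 3 were called lower (GAPC2, FBA5 and FBA6), with log2 fold changes of -1.02, -1.31 and -1.07, and the median was -0.14. Those of GAPC2 and FBA6 came to -0.93 and -0.98, under the fold limit, with 1 library left out. Over the 3 lists, 12 of 55 genes (21.8%) were called lower, beside 9.52% of all tested genes.

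Some counts are less certain than their errors show, because reads were joined to genes by overlap and without strand. RCA, PGK1, PRK, GOX1, CAT2 and GLU1 among the DEGs overlap a gene on the opposite strand, by 3 to 95 bases. The largest of these overlaps was that of CAT2 with AT4G35080, which had 128 counts summed over the libraries, and whose reads cannot be told from those of CAT2 in the overlap. Among the tested members that were not DEGs, GAPA1, TIM, FBA3, HCEF1, GLDP1 and GLDH3 also overlap another gene. TIM does so by 218 bases on the same strand and HCEF1 by 167 bases on the opposite strand. RBCS1B, GAPB, CP12-1, CP12-2, GGT1, AGT1, SHM1 and HPR1 overlap no annotated gene.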

How the data were processed

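Poly(A) RNA of 2 floral bud and 2 seedling samples was read by ONT DRS. The authors called bases with Guppy, aligned reads to TAIR10 with minimap2 2.17 and counted them per gene with TrackCluster, joining reads to genes by at least 5% overlap without strand. They deposited these estimated counts without normalization, and 83.8% of the values above 0 were not whole. Columns repeated between tables were identical for 3 libraries.

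Estimated counts were rounded and genes with at least 5 counts over the libraries were tested with edgeR 4.0.16 (R 4.3.3), floral buds over seedlings, with upper-quartile factors, the quasi-likelihood test and Benjamini-Hochberg adjustment over 18647 genes. The prior degrees of freedom were not finite, so the test used a variance shared between genes and none estimated for a gene alone. The common dispersion gave a biological coefficient of variation of 14.6%, but the SEs were not derived from that value. The methods of the study give edgeR with quantile normalization, for which upper-quartile factors stand in here. The SE was derived from the fold change and F, and the adjusted intervals for paralogs treat the 2 genes as independent. Counts were not divided by transcript length, since each read stands for 1 molecule. Transcripts were compared with blastn 2.17.0 and RBCS coding sequences with mafft 7.526, on the RefSeq annotation of TAIR10.1, to which all 24750 loci matched.

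Genes named are all members, the 3 companion lists, copies and overlapping genes. The rule for the members uses no measured value, but members and lists were chosen with earlier results of these data known. Alternatives were TMM factors, library size alone, DESeq2 1.42.0, limma-voom (limma 3.58.1) with quantile normalization, edgeR's exact test, other count filters, no fold limit, glmTreat, a replicate block, each library left out, and unrounded counts. Family sums and paralog differences were chosen after seeing the data. Limits of detection and binomial intervals cover counting error only, and the adjusted intervals for paralogs also carry the variance shared between genes.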

Additional observations from a re-analysis of the deposited data

How the results depend on the processing

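Against 14 members called lower as reported, 13 were called with TMM factors, 10 with library size alone (without PGK1, CP12-1, PRK and GOX1), 14 with DESeq2, 12 with limma-voom (without RBCS1B and CP12-1), 14 with the exact test, 4 with glmTreat, which tests against a fold change of 2, and 13 to 14 with 1 library left out. Against 29 members lower at an FDR below 0.05, DESeq2 gave 25, limma-voom and the replicate block 24 each (the block without GAPA1, TIM, GLDP1, GLDT and GLDH3) and leaving out 1 library 24 to 27. No member was called higher in floral buds under any alternative run. By path, library size alone called 4 Calvin cycle genes in place of 7. With no fold limit the counts were 17 for the Calvin cycle, 12 for photorespiration and 21 for the companion lists, and with glmTreat they were 1, 3 and 4. Over all genes, 3687 were DEGs, 1965 with DESeq2, 1037 with at least 10 counts in each library and 2126 with glmTreat.

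Only members that had not passed the test changed sign. With 1 library left out, the log2 fold change ranged from -0.055 to 0.34 for PGK2, from -0.21 to 0.019 for FBA3, from -0.60 to 0.16 for TKL2 and from -0.27 to 0.076 for GLDP2. With library size alone it was 0.0050 for FBA3 and 0.014 for GLDP2. The causes were not tested.

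The replicate numbers pair the samples only by number: deviations of same-numbered libraries from their stage means had a correlation of -0.05 across 6531 genes. With the replicate number as a block, 14 members and 3095 genes in all were called. No pair of listed members reached 95% identity over 80% of the transcript, so summing near-identical copies gave no value. At these depths CP12-3, TKL2 and GGT2, with under 20 counts in at least 1 library, were the members least able to show a change.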
